A study of Mus musculus with 298 samples.

Results

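The 6 intermediate filament genes Nefl, Nefm, Nefh, Ina, Prph and Vim were followed cell by cell in the thoracic sympathetic ganglia of mice. They were chosen by name and make up 6 of the 16892 genes counted. All 298 cells came from mice that carried Wnt1-Cre, which is active in the embryonic neural crest, together with the Cre-dependent reporter R26R-Tomato, and no other genotype was included. The labels place 193 cells in 5 noradrenergic identities (10 cells of Noradrenergic1, 39 of Noradrenergic2, 18 of Noradrenergic4, 23 of Noradrenergic5 and the others of Noradrenergic3), 16 in the cholinergic identities Ach1 and Ach2 (8 cells each), 4 in a Glutamatergic identity and 85 in none. Cells were caught on 24 microfluidic chips in 10 collections, a collection being all cells that share a sex and an age, from postnatal day 11 to day 38, and the collection served as the replicate because the labels name no animals. Several animals may be mixed in a collection, so p-values do not measure the spread between animals. Between identities, they rest on the spread left among the sums of each identity in each collection, once the collection is fitted. Some of these sums hold a single cell. For age and sex, p-values rest on the spread between collections. A cell held 7225 to 81589 counts in all (median 33099).

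Intermediate filaments are rope-like polymers of the cytoskeleton. In mature neurons the light, medium and heavy neurofilament proteins, encoded by Nefl, Nefm and Nefh, assemble with one another, and in peripheral neurons with peripherin, encoded by Prph. Nefl supplies the core subunit, Nefm and Nefh carry long tails that project from the filament, and their abundance is linked to the calibre of axons. Ina encodes alpha-internexin, a filament protein known for its early expression in developing neurons. Vim encodes vimentin, the filament protein of glia, fibroblasts, endothelium and neural progenitors, which neurons also make during early growth and after injury.

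The genes lie on 5 chromosomes of GRCm38. Nefl (chromosome 14, 68083863 to 68089095, plus strand, 4 exons) and Nefm (chromosome 14, 68082590 to 68124846, minus strand) are neighbours, and 1 of the 2 annotated Nefm transcripts reaches across Nefl, so that the exons of the pair share 1108 bases on opposite strands. Nefh lies on chromosome 11 (4938754 to 4948064, minus strand) and overlaps no other annotated gene. Ina (chromosome 19, 47014698 to 47025327, plus strand) shares 456 exonic bases with Nt5c2 on the opposite strand. Prph (chromosome 15, 99055174 to 99058978, plus strand) and Vim (chromosome 2, 13573927 to 13582826, plus strand) overlap no other gene. Whether reads were counted by strand is not given in the sources used here, so counts in the shared stretches of Nefl, Nefm and Ina are uncertain.

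Promoters are shown for Ina and Prph, because the first was lower in the cholinergic cells while the second was not called in any comparison and had a count in every cell. RefSeq promoter windows were at hand for 3 of the 6 members, and that of Vim is not shown because it lies in an annotated exon. The 120 bases before each RefSeq start (GRCm38.p6) are printed 5′ to 3′ on the plus strand, for Ina at chr19:47014561-47014680 and for Prph at chr15:99055054-99055173. Capitals mark a TATA box (TATAAA) or a GC box (GGGCGG), searched on both strands.
Ina: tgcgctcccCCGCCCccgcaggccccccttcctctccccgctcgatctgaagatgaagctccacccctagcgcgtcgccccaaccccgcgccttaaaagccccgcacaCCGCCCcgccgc
Prph: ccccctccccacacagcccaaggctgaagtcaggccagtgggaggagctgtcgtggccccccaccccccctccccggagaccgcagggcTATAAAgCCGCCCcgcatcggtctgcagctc
The Prph stretch holds TATAAA 31 to 26 bases before the start, a match found in 6.34% of 32851 windows of the same length, followed by a GC box on the opposite strand. The Ina stretch holds no TATAAA and 2 GC boxes on the opposite strand, and a GC box was found in 26.5% of windows. A CCAAT box (CCAAT) or a cAMP response element (TGACGTCA) was in neither stretch, against 21.3% and 1.24% of windows. A match describes the letters only, and binding was not measured.

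In the cell labels, 1 collection went against its sex. In the P16 collection, labelled female, 5 of 5 cells held a count of a Y-linked gene and 0 of 5 held Xist. It holds 1 cell each of Ach1, Ach2 and Noradrenergic2, the age and sex comparisons do not use it, and each fitted difference of a called member was also computed without it. Levels, shares and correlations include it. The neuronal markers were present in all identities, with a summed level of 6 pan-neuronal genes that had a median of 137 to 237 counts per 10000 per cell. Markers of satellite glia and Schwann cells were also found, and the sum of 14 such genes had a median of 5.21 counts per 10000 per cell in noradrenergic cells (0.864 to 66.6), 28.4 in Ach1, 30.0 in Ach2, 27.1 in Glutamatergic and 26.1 in Unclassified cells. Sox10, a glial transcription factor, had a count in 27 of 193 noradrenergic, 3 of 16 cholinergic and 2 of 4 Glutamatergic cells. One gene of the 14 had a count in 213 of 213 named cells, with a mean of 2.97 counts per 10000 in noradrenergic and 9.70 in cholinergic cells. Without it the median sum was 1.86 in noradrenergic, 19.7 in cholinergic and 23.2 in Glutamatergic cells. The sum of 6 fibroblast genes had a median of 0 in noradrenergic cells, with a highest value of 98.9, and of 0.532 in cholinergic cells. The sum of 14 immediate-early and stress genes had a median of 11.2 in noradrenergic, 23.7 in cholinergic and 46.0 in Glutamatergic cells.

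The labels were set against markers of the neurons. The summed level of 12 sympathetic genes had a median of 133 counts per 10000 in noradrenergic, 27.9 in cholinergic and 12.0 in Glutamatergic cells. The sum of 7 sensory neuron genes had a median of 184 in the Glutamatergic cells (90.0 to 217), against 5.46 in noradrenergic and 2.80 in cholinergic cells, so the 4 Glutamatergic cells carried the markers of sensory neurons. Of the 8 Ach1 cells, 4 held 33 to 61 counts of Th, the noradrenaline-pathway enzyme, and the other 4 held 0.

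Filament transcripts were found in nearly all of the neurons. Prph had a count in 213 of 213 named cells (exact 95% binomial interval 98.3% to 100%), and Nefl and Nefm each in 212 of 213. Ina had a count in 203 of 213 cells (95.3%), Nefh in 188 (88.3%) and Vim in 178 (83.6%), and these intervals cover counting error only. When each cell was thinned to 15000 counts, which left out 3 named cells, Nefh was found in 62.4% and Vim in 73.8% of them, so the depth of a cell limits whether these are seen. Prph stayed at 100%.

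Levels are given below as counts per 10000, pooled over the cells of an identity in a collection, with the mean and SD over collections. They are not scaled by gene length and are compared between cells, not between genes. Identities may have been assigned from these same transcriptomes, since the labels do not say how, and p-values between identities are then no independent evidence. Differences were fitted with edgeR on counts summed by identity and collection, with identities weighted equally and the collection as a block, and a gene was called at an adjusted p under 0.05 over all 11555 genes tested. Across 8 comparisons between identities, 10 of the 48 tests of a member were called, where 0.138% to 4.57% of all genes were called in a comparison. Every member other than Prph was called in at least 1 comparison.

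**Figure D1:**
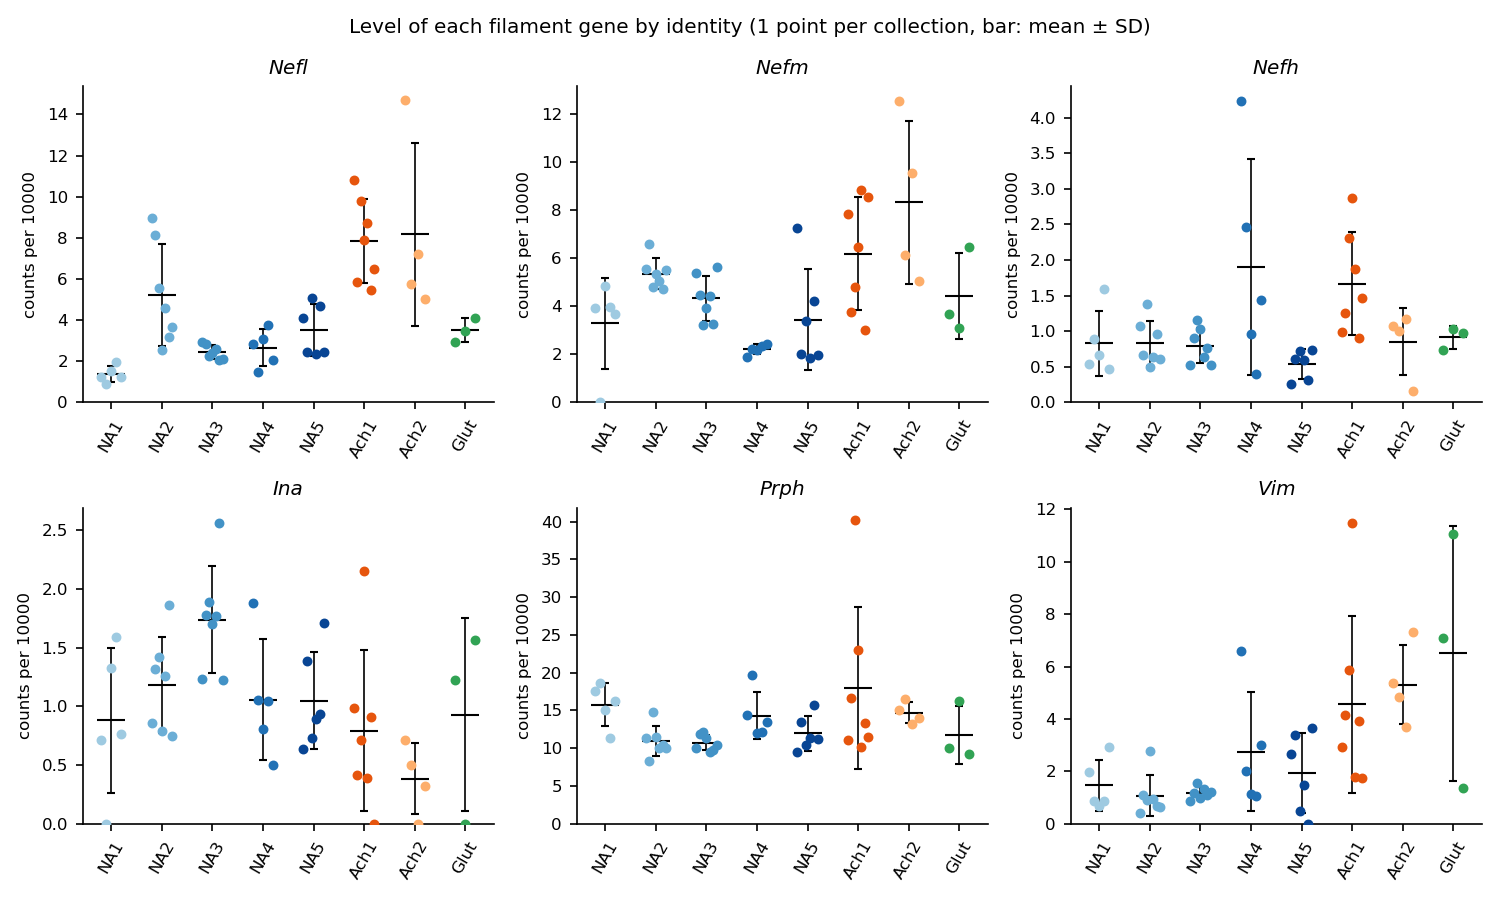
Level of each gene (counts per 10000, vertical axis from 0) in the 8 named identities (NA, noradrenergic; Glut, Glutamatergic), with 1 point per collection and a bar for the mean ± SD over collections. Nefl and Vim were highest in the cholinergic identities and, for Vim, the Glutamatergic cells, and Ina was highest in Noradrenergic3.

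The comparison of cholinergic with noradrenergic neurons asks how cells labelled by different transmitters differ in their filaments. Transmitter use is taken from the labels, and 4 of the 8 Ach1 cells held counts of Th, as given above. Nefl, Nefm and Vim were higher in the cholinergic cells and Ina was lower, while Nefh and Prph were not called. The 4 called members stand beside 4.57% of all genes called in this comparison, 2.17% higher and 2.4% lower. The median log2 fold change over all genes was -0.20. RLE size factors shifted that median to -0.04 and turned the 251 higher and 277 lower genes into 338 and 219. The same 4 members were called with RLE factors.

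Nefl, the core subunit, stood at a lowest of 5.45, a median of 7.90 and a highest of 12.4 counts per 10000 over the 7 cholinergic collections, against 1.55, 3.03 and 8.98 over the 10 noradrenergic ones. The cholinergic cells were higher in 7 of 7 collections with cells on both sides, although the ranges overlapped. The overlap came from the single noradrenergic cells of P16, where both sides were high (12.4 and 8.98), and of P20 (8.13), which held no cholinergic cell. The fitted log2 fold change was 1.23 (standard error 0.18, edgeR adjusted p = 4.27e-09), and it was called without each collection in turn, with a range of 1.11 to 1.31.

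Nefm, the medium subunit, stood at 3.03, 6.46 and 9.76 (lowest, median and highest) against 2.91, 4.59 and 6.59 counts per 10000. It was higher in 6 of 7 collections, the exception being the single Ach1 cell of P33, at 3.03 against 4.31. The log2 fold change was 0.80 (standard error 0.18, edgeR adjusted p = 0.000619). This call rested on the P31 female collection, without which the log2 fold change was 0.56 (edgeR adjusted p = 0.103).

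Nefh, the heavy subunit, stood at 1.45 ± 0.775 (SD, n = 7 collections) against 0.860 ± 0.195 (n = 10) counts per 10000, a log2 fold change of 0.21 (95% interval -0.33 to 0.75, edgeR adjusted p = 0.791). The interval includes 0. Across collections the cholinergic values ran from 0.628 to 2.87 and overlapped the noradrenergic range of 0.659 to 1.23.

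Ina, the alpha-internexin gene, was lower in the cholinergic cells. It stood at a lowest of 0.209, a median of 0.487 and a highest of 2.15 counts per 10000 against 0.855, 1.36 and 2.34. It was lower in 5 of 7 collections. The exceptions were P16, with 0.874 against 0.855, and P30 male, where 3 counts in the single Ach1 cell gave 2.15 against 1.33. In the fit the log2 fold change was -1.36 (standard error 0.33, edgeR adjusted p = 0.00146), and it was called under all 6 alternatives and without each of the 10 collections, where it ran from -1.51 to -1.19. A count of Ina was found in 13 of 16 cholinergic and 187 of 193 noradrenergic cells.

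Prph, the peripherin gene, stood at a lowest of 10.1, a median of 13.3 and a highest of 27.4 counts per 10000 against 8.35, 11.2 and 15.0. The level was higher in 6 of 7 collections, yet the fitted log2 fold change was 0.11 (95% interval -0.25 to 0.47, edgeR adjusted p = 0.860). The highest value came from the single Ach1 cell of P30 female, which held 226 counts of Prph, or 40.2 per 10000, against 10.1 to 22.98 in the other Ach1 collections. Without the P30 female collection the log2 fold change was -0.03. Over 16 cholinergic cells Prph correlated at 0.73 (Spearman) with the summed glial genes, and at 0.69 without the gene found in every named cell. With the whole list it was 0.08 over the 193 noradrenergic and -0.11 over the 85 Unclassified cells. These values describe cells that share collections. Prph was not called under any of 6 alternatives, a glial covariate among them, with log2 fold changes from -0.03 to 0.29. Beyond that covariate, the part of the glial genes in the Prph levels was not tested.

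**Figure D2:**
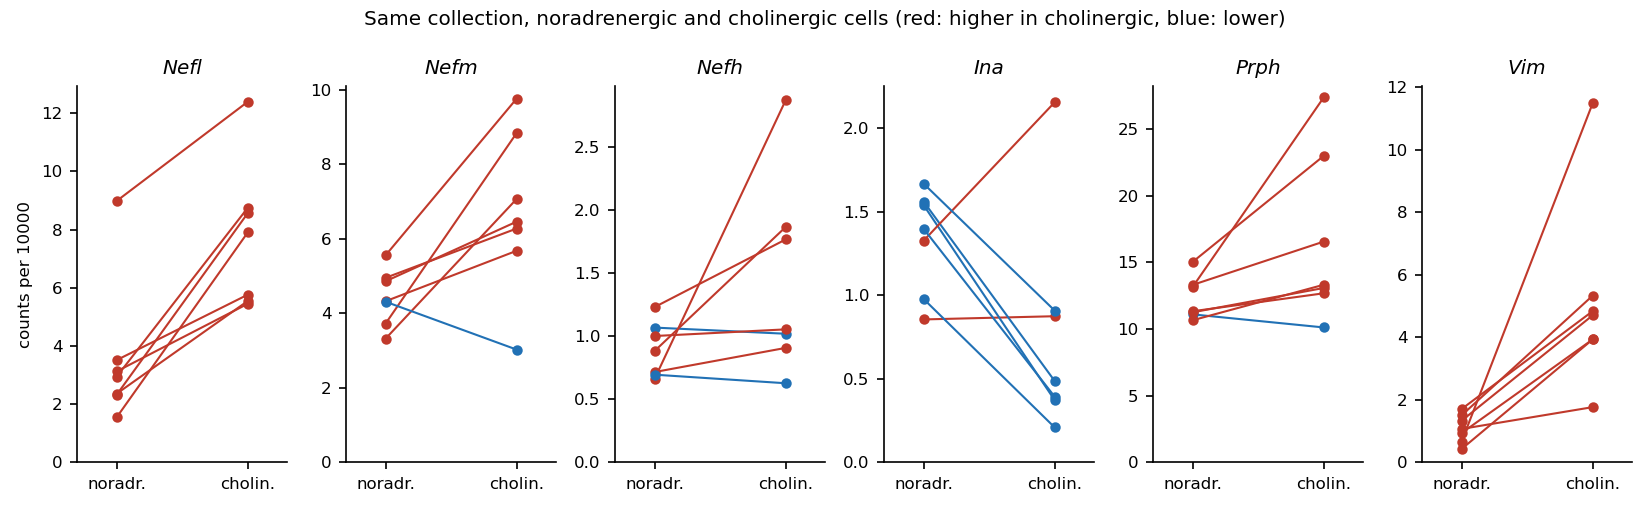
Counts per 10000 (vertical axes from 0) in the noradrenergic and cholinergic cells of the same collection, joined by a line, for the 7 collections that held both. Nefl and Vim rose from left to right in 7 of 7 collections, and Ina fell in 5.

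Vim was higher in the cholinergic cells, at a lowest of 1.77, a median of 4.71 and a highest of 11.5 counts per 10000 against 0.428, 1.22 and 1.99. It was higher in 7 of 7 collections, and only the P31 female value of 1.77 fell inside the noradrenergic range. The log2 fold change was 1.38 (standard error 0.21, edgeR adjusted p = 2.11e-08). The glial genes, and the immediate-early and stress genes given above, moved with this difference, and the part of the latter was not tested. For the glial genes, with the summed glial level of each library as a covariate the log2 fold change was 0.86 (edgeR adjusted p = 0.00338).

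Vim followed the glial genes from cell to cell, though weakly in Ach2. Its Spearman correlation with the sum of the 14 glial genes was 0.66 over all Noradrenergic3 cells, 0.63 over the 43 of these from the P31 female collection, 0.62 over 39 Noradrenergic2 cells, 0.64 over 16 cholinergic cells and 0.63 over 85 Unclassified cells. Among smaller sets it was 0.90 over 8 Ach1, 0.26 over 8 Ach2 and 0.43 over 23 Noradrenergic5 cells. A shorter list, without the gene found in every named cell, was chosen after the data were seen. It gave 0.66 in Noradrenergic3, 0.52 in Noradrenergic2, 0.48 in cholinergic and 0.62 in Unclassified cells. In Ach1, Ach2 and Noradrenergic5 the shorter list gave 0.71, 0.14 and 0.40. The other 5 members had correlations with the sum of the 14 genes between -0.10 and 0.21 in Noradrenergic3 cells. These cells share collections and chips, and the values are given as a description. How much of the Vim RNA came from other cells was not tested.

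**Figure D3:**
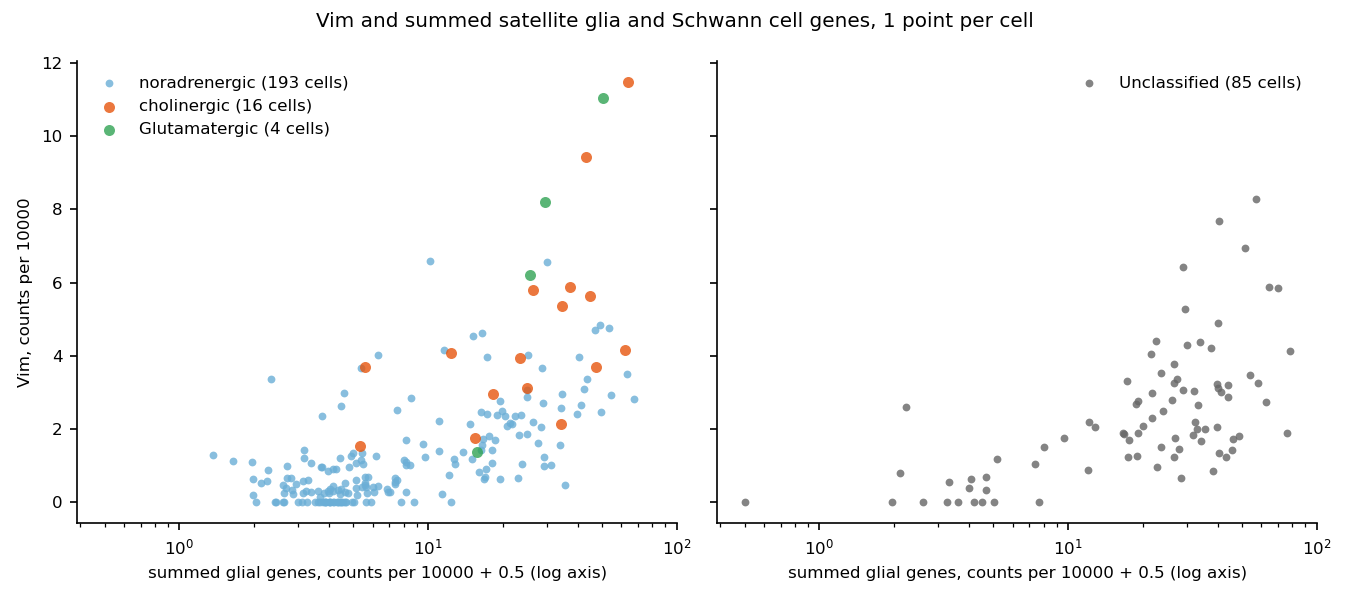
Vim (counts per 10000, vertical axis) against the summed level of 14 satellite glia and Schwann cell genes (counts per 10000 plus 0.5, log axis), with 1 point per cell and the Unclassified cells in a panel of their own. Vim tends to be higher in cells with more glial counts. The Spearman correlation is 0.63 over the 193 noradrenergic and 0.64 over the 16 cholinergic cells, with 0.90 in Ach1 and 0.26 in Ach2.

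The 4 Glutamatergic cells were compared with the noradrenergic cells to describe their filaments. Of the members, Vim was higher and the other 5 were not called, beside 2.63% of all genes called. The median over all genes was -0.39, with 187 genes called higher and 117 lower, and RLE size factors made these 0.02, 291 and 46. Vim stood at 7.10 (P29 male, 2 cells), 11.05 (P31 female, 1 cell) and 1.37 (P33 female, 1 cell) counts per 10000, and it was higher than in the noradrenergic cells of the same collection in 3 of 3. The P33 cell, the lowest of them, also held 130 counts of Th and the lowest glial sum, 15.3 against 25.3 to 50.1 in the other cells.

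The log2 fold change of Vim was 1.92 (standard error 0.33, edgeR adjusted p = 3.04e-06) in the fit that draws its spread from every identity together. It was 1.301 without the P31 female collection and no longer called (edgeR adjusted p = 0.173), and 1.23 with the glial level as a covariate. The part of the immediate-early and stress genes in it was not tested. Nefl stood at 3.50 ± 0.588 (SD, n = 3 collections), Nefm at 4.41 ± 1.79, Nefh at 0.916 ± 0.160 and Prph at 11.8 ± 3.84 counts per 10000. Ina had 0 counts in the P31 cell, which allows up to 1.04 per 10000 (3 counts), and stood at 1.22 and 1.57 in the other collections. Log2 fold changes of these 5 members ran from -0.55 to 0.17.

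Ach1 and Ach2 cells were compared to see whether the cholinergic identities differ in filament genes. EdgeR called 0 of 6 members, 0 had an unadjusted p under 0.05 and DESeq2 called 0, beside 0.138% of all genes called. Nefl stood at 7.86 ± 2.04 (SD, n = 7 collections) in Ach1 and 8.17 ± 4.44 (n = 4) in Ach2, with a log2 fold change of -0.00 (95% interval -0.59 to 0.58). Nefh stood at 1.67 ± 0.726 against 0.854 ± 0.466, with a log2 fold change of 0.89 (95% interval -0.03 to 1.80, edgeR adjusted p = 0.685). In Ach2 the P38 male collection held 1 count of Nefh in 2 cells, or 0.162 per 10000, while the other collections stood at 1.01 to 1.17.

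Among the noradrenergic identities each was set against the other 4, to describe how filament genes vary within neurons labelled by 1 transmitter. Nefl and Nefm were higher in Noradrenergic2, Ina was higher in Noradrenergic3, and in Noradrenergic4 Nefm was lower and Nefh higher. EdgeR called no member in Noradrenergic1 or Noradrenergic5, while 1 member in each had an unadjusted p under 0.05 and DESeq2 called Nefl in Noradrenergic1.

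In Noradrenergic2, 2 of 6 members were called beside 1.64% of all genes. Nefl ran from a lowest of 2.56 over a median of 4.58 to a highest of 8.98 counts per 10000 in 7 collections. Its highest values, 8.98 and 8.13, were each a single cell from P16 and P20. It was higher than in the other noradrenergic cells in 5 of 5 shared collections, with a log2 fold change of 0.89 (standard error 0.21, edgeR adjusted p = 0.00252). The call ended without the P29 male collection (0.71, edgeR adjusted p = 0.208).

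Nefm stood at 5.36 ± 0.634 counts per 10000 (SD, n = 7 collections) in Noradrenergic2, with a range of 4.70 to 6.59, and was also higher in 5 of 5 shared collections. The log2 fold change was 0.76 (standard error 0.20, edgeR adjusted p = 0.0159). It was not called by DESeq2 (0.67, DESeq2 adjusted p = 0.0601) or without the P29 male, P30 female, P31 female or P38 male collection, where edgeR adjusted p reached 0.175. On each of the 4 chips of the P31 female collection Nefl and Nefm were higher in Noradrenergic2 than in Noradrenergic3 cells, with Nefl at 2.66 to 5.42 against 1.80 to 2.76 and Nefm at 4.06 to 6.07 against 3.56 to 4.33 counts per 10000.

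In Noradrenergic3, the largest identity, 1 of 6 members was called beside 1.74% of all genes. Ina ran from 1.22 (P38 male) over a median of 1.77 to 2.57 (P34 female) counts per 10000, had a count in every cell and was higher than in the other noradrenergic cells in 7 of 7 collections. The log2 fold change was 0.80 (standard error 0.19, edgeR adjusted p = 0.00355), in a comparison where the median over all genes was 0.16. All genes called were split into 169 higher and 32 lower, against 115 and 45 with RLE size factors. Without the P38 male collection it was 0.75 and just missed the threshold (edgeR adjusted p = 0.0517). Nefm had a log2 fold change of 0.49 that was not called (edgeR adjusted p = 0.246). Nefl was lower in 7 of 7 collections, yet its fitted log2 fold change was 0.01 (edgeR adjusted p = 0.991).

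In Noradrenergic4, 2 of 6 members were called, in opposite directions, beside 1.25% of all genes. Nefm stood at 1.88 (P11 female), 2.20 (P30 female), 2.17 (P31 female), 2.35 (P33 female) and 2.44 (P38 male) counts per 10000. It was lower than in the other noradrenergic cells in 5 of 5 collections, with a log2 fold change of -0.96 (standard error 0.25, edgeR adjusted p = 0.0148). Its SD over collections, 0.213, was the smallest of the 8 identities.

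Nefh in Noradrenergic4 stood at 4.24, 2.47, 0.965, 0.392 and 1.44 counts per 10000 in the same order of collections. The single P11 cell was the highest and P33, with 3 counts in 2 cells, the lowest, and the level was above that of the other noradrenergic cells in 4 of 5 collections. In the fit the log2 fold change was 1.07 (standard error 0.27, edgeR adjusted p = 0.00685).

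Neither call held under all settings. Nefm was not called without a block (-0.88, edgeR adjusted p = 0.101) or without the P11 female (-0.76) or P38 male collection. Nefh was not called with libraries of at least 2 cells (0.79, edgeR adjusted p = 0.0987), or without P11 female, P30 female or P38 male, where edgeR adjusted p reached 0.213. Vim had a log2 fold change of 0.69 in Noradrenergic4 that was not called (edgeR adjusted p = 0.240), and its level ran from 1.04 to 6.59 counts per 10000, beside a median glial sum of 9.42 per cell. Vim and Prph were each higher than in the other noradrenergic cells in 5 of 5 collections. The log2 fold change of Prph was 0.20 and not called (edgeR adjusted p = 0.867).

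Noradrenergic1 had the lowest Nefl of the identities, at 1.26 (P29 male), 0.886 (P30 female), 1.55 (P30 male), 1.95 (P31 female) and 1.23 (P38 male) counts per 10000. It was lower than in the other noradrenergic cells in 4 of 4 shared collections, with a log2 fold change of -1.09 (standard error 0.33) that just missed the threshold (edgeR adjusted p = 0.0542). It passed under all 6 alternatives, DESeq2 among them, with adjusted p from 0.00536 to 0.0492, and missed it without 9 of the 10 collections in turn, the exception being P30 male. With 1 member at an unadjusted p under 0.05, edgeR called 0 of 6 beside 1.39% of all genes, and DESeq2 called 1. Prph stood at 15.8 ± 2.80 (SD, n = 5 collections) and was higher in 4 of 4 shared collections, yet its fitted log2 fold change was 0.11 (edgeR adjusted p = 0.966).

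In Noradrenergic5, Nefh was lowest of all identities, at 0.540 ± 0.207 counts per 10000 (SD, n = 6 collections), and lower than in the other noradrenergic cells in 6 of 6 collections. Its log2 fold change of -1.03 (standard error 0.32) was not called (edgeR adjusted p = 0.0708) and was not called under any alternative or without any collection. Ina was also lower in 6 of 6 collections, with a log2 fold change of -0.47 that was not called (edgeR adjusted p = 0.725). EdgeR and DESeq2 called 0 of 6 members, 1 had an unadjusted p under 0.05, and 1.41% of all genes were called.

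**Figure D4:**
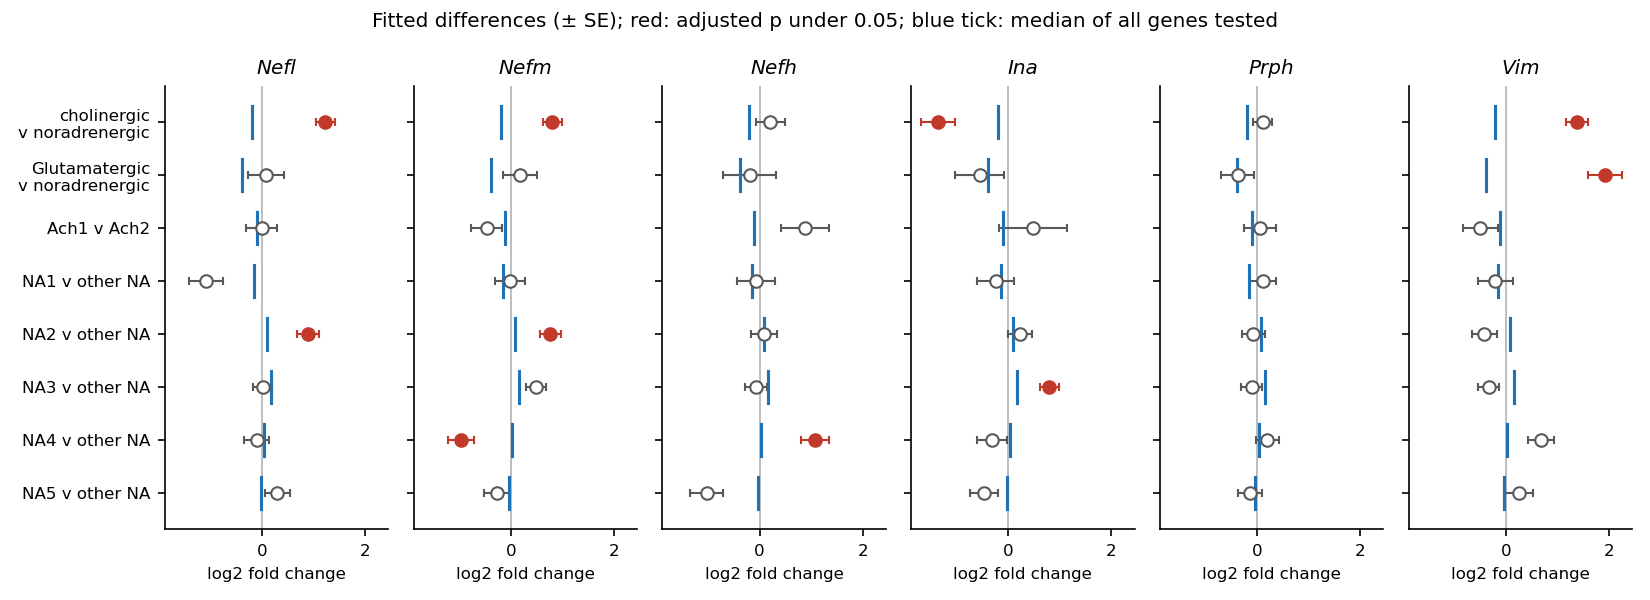
Fitted log2 fold change ± standard error (horizontal axis) of each member in the 8 comparisons between identities, filled red where the edgeR adjusted p was under 0.05, with a blue tick at the median of all genes tested. Of the 48 points 10 are red, and Prph has none.

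In the order of mean levels most neighbours lay within each other's spread. For Nefl the order ran Ach2 (8.17), Ach1 (7.86), Noradrenergic2 (5.24), Noradrenergic5 (3.52), Glutamatergic (3.50), Noradrenergic4 (2.65), Noradrenergic3 (2.45) and Noradrenergic1 (1.37 counts per 10000). The steps from Ach1 to Noradrenergic2 and from Noradrenergic3 to Noradrenergic1 exceeded the SD on both sides, and no other step did. For Ina only the step from Noradrenergic3 (1.74) to Noradrenergic2 (1.18) did so, and Ach2 (0.386) was last. For Nefh the steps from Ach1 (1.67) to Glutamatergic (0.916) and from Noradrenergic3 (0.795) to Noradrenergic5 (0.540) did. For Nefm, Prph and Vim no step between neighbours exceeded the SD on both sides.

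The mix of the neurofilament triplet is given as a description, with no test between identities. As a share of the summed Nefl, Nefm and Nefh counts of all its cells, Nefh made up 23.6% in Noradrenergic4 (of 420 counts, exact 95% binomial interval 19.6% to 27.9%), 11.7% in Noradrenergic3 (10.5% to 12.9%), 7.73% in Noradrenergic2 (6.53% to 9.07%) and 5.52% in Ach2 (3.41% to 8.40%). These intervals cover counting error only. Over collections the share in Noradrenergic4 ran from 6.00% to 47.4%, so it varied more between collections than its counting error. Nefl made up 24.2% in Noradrenergic1, 31.96% in Noradrenergic3, 43.1% in Noradrenergic2, 47.1% in Noradrenergic5 and 49.6% in Ach1. In Noradrenergic3 the Nefl share ran from 25.5% to 34.5% over 7 collections, and in Ach1 from 39.3% to 58.1%, with no overlap. The Ach1 range did overlap those of all the other identities, among them Noradrenergic2 (30.6% to 57.5%) and Noradrenergic5 (35.2% to 55.3%). Shares of counts cannot be read as shares of molecules, since the transcripts differ in length and any collapsing of molecules is not given.

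**Figure D5:**
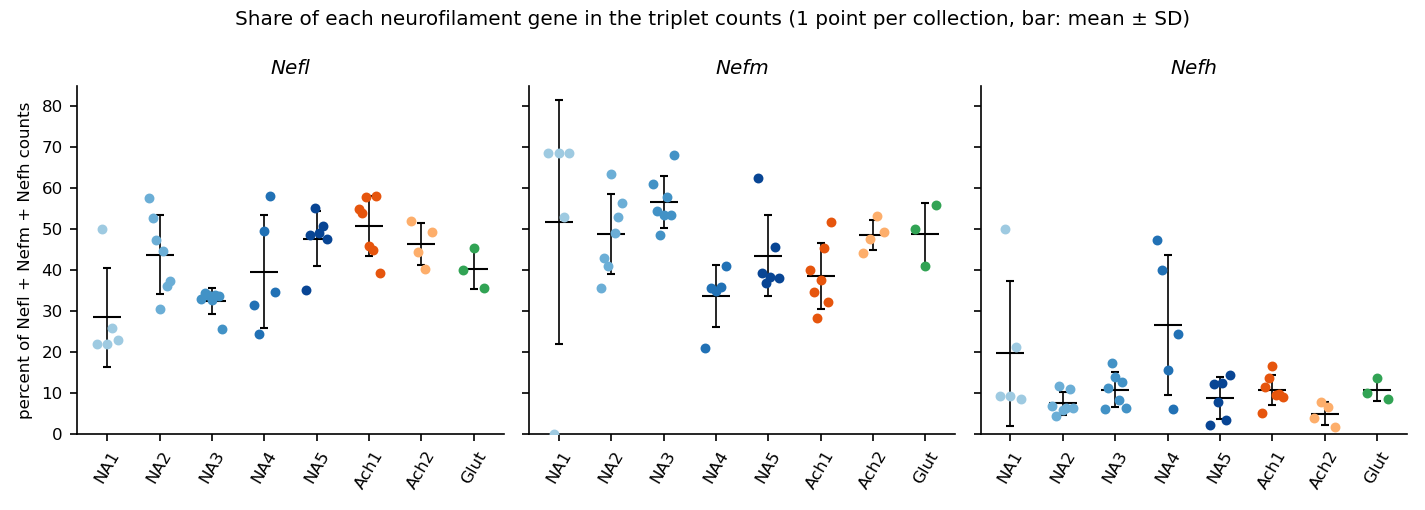
Share of Nefl, Nefm and Nefh in their summed counts (percent, vertical axis from 0) by identity, with 1 point per collection and a bar for the mean ± SD over collections. The Nefh share of Noradrenergic4 spreads from 6.00% to 47.4%. The Nefl share of Ach1 lies above that of Noradrenergic3 and overlaps those of the other identities.

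Over all Noradrenergic3 cells together, the members were only weakly related from cell to cell. Over these cells the Spearman correlation of Nefl with Nefm was 0.21, that of Nefm with Prph -0.30 and that of Nefh with Prph 0.24, and the other 12 pairs lay between -0.10 and 0.14. Over the 43 Noradrenergic3 cells of P31 female alone, Nefh with Prph stood at 0.46, Nefm with Ina at -0.37 and Nefm with Prph at -0.26. The other 12 pairs there lay between -0.22 and 0.23. Over 39 Noradrenergic2 cells Nefm with Ina stood at -0.41, and the other pairs lay between -0.28 and 0.36. Over the 85 Unclassified cells Nefl and Nefm correlated at 0.54. In sparse counts, over cells that share collections or chips, these correlations are a description and no finding. After thinning, the variance of Nefm over Noradrenergic3 cells was 2.58 times its mean, above 97.5% of the 402 genes of like mean (within 1.5-fold). Differences between collections, where Nefm ran from 3.24 to 5.64 counts per 10000, were not removed from these ratios. For Vim the ratio was 2.21, above 99.01% of 1421 genes. For Nefh it was 1.39, above 90.5% of 2071 genes, and Nefl (1.16), Ina (1.05) and Prph (1.58) lay below the median of genes of like mean.

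Age and sex were compared within Noradrenergic3, the identity with the most cells, over 7 collections of 3 to 43 cells. EdgeR called 0 of 6 members with age, 0 had an unadjusted p under 0.05 and DESeq2 called 0, beside 1.25% of 10141 genes called. Nefm stood at 5.38 (P11 female), 4.46 (P29 male), 3.24 (P30 female), 3.93 (P31 female), 4.44 (P33 female), 3.25 (P34 female) and 5.64 (P38 male) counts per 10000, so its values were high at both ends of the age range. Its log2 slope was -0.17 per 10 days (standard error 0.11, edgeR adjusted p = 0.614).

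Ina was lowest at P11 (1.24) and P38 (1.22) and highest at P34 (2.57 counts per 10000), with a log2 slope of 0.17 per 10 days (standard error 0.15, edgeR adjusted p = 0.726). The slopes of Nefl (-0.19), Nefh (0.12), Vim (0.18) and Prph (-0.01) were not called either. P11 was the only collection before day 29 in this identity. Without it the slopes of Nefm, Nefh and Ina changed sign, to 0.44, -1.004 and -0.32.

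For sex, with 2 male and 5 female collections, edgeR and DESeq2 called 0 of 6 members beside 0.0296% of genes called. Nefm had the single unadjusted p under 0.05, with 4.46 and 5.64 counts per 10000 in the male collections against 3.24 to 5.38 in the female ones and a log2 fold change of 0.42 (95% interval 0.05 to 0.79, edgeR adjusted p = 0.9996). The ranges overlapped through P11. Age and sex were partly confounded with the chips. By their names, the chips of both male collections belong to a series that the P11 and P31 female chips do not share. The part of the chip series in the age and sex values cannot be told apart. The other log2 fold changes, male over female, ran from -0.42 for Nefh to 0.08 for Nefl.

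Of 56 related genes of the cytoskeleton, 49 could be tested in the comparisons of identities. In cholinergic against noradrenergic cells 1 rose, 4 fell and 44 were not called, with a median log2 fold change of -0.25 against -0.20 over all genes. The one that rose was Synm, which encodes synemin, an intermediate filament protein that pairs with vimentin and desmin. It stood at 1.61 ± 0.932 (SD, n = 7 collections) against 0.305 ± 0.169 counts per 10000 (n = 10), was higher in 7 of 7 collections and had a log2 fold change of 1.60 (standard error 0.26, edgeR adjusted p = 9.45e-08). Synm was 1 of 4 testable genes among 11 other intermediate filament genes, and Gfap and Nes had a count in 0 of 16 cholinergic cells.

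The 4 genes that fell in cholinergic cells were 1 of 9 tubulins and 3 of 13 microtubule-associated proteins. Tubb2b, a beta-tubulin, fell by 0.85 in log2 units (standard error 0.21, edgeR adjusted p = 0.00148), with 3.65 ± 1.82 against 6.71 ± 2.55 counts per 10000. Stmn1 and Stmn2, stathmins that bind tubulin, fell by 0.97 and 0.62 (edgeR adjusted p = 0.000426 and 0.0492), and Dpysl2, a collapsin response mediator, fell by 0.66 (edgeR adjusted p = 0.0221). None of 7 cytolinkers, 8 genes of filament turnover and kinases or 8 axonal transport motors was called by edgeR, and DESeq2 called 9 of the 49 related genes, the cytolinker Dst among them.

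In the Glutamatergic cells Synm rose as well, at 2.18 ± 0.599 counts per 10000 (n = 3 collections; log2 fold change 1.87, standard error 0.44, edgeR adjusted p = 0.00183), and edgeR called none of the other 48 related genes. Of the 49, 8 had an unadjusted p under 0.05, beside 1379 of all 11555 genes, and DESeq2 called 2, Synm and Stmn1. In Noradrenergic1, Tuba4a, an alpha-tubulin, was higher by 1.49 in log2 units (standard error 0.24, edgeR adjusted p = 1.48e-07), with 9.54 ± 1.53 counts per 10000 (n = 5 collections) against means of 2.33 to 3.43 in Noradrenergic2 to Noradrenergic5. With age Dpysl3 fell by 0.36 log2 units per 10 days in Noradrenergic3 (standard error 0.10, edgeR adjusted p = 0.0391). Its level there was 8.10 ± 2.25 counts per 10000 (SD, n = 7 collections), from 6.73 to 13.1. Whether this call holds without P11 female, the only collection at the young end, is not given. No related gene was called between Ach1 and Ach2, between the sexes or in Noradrenergic2, Noradrenergic3, Noradrenergic4 or Noradrenergic5 by edgeR. The numbers at an unadjusted p under 0.05 were 4, 0, 1, 2, 10 and 3 in that order, and DESeq2 called 1, 0, 0, 0, 1 and 0. Over all genes the numbers at an unadjusted edgeR p under 0.05 were 856, 397, 967, 1136, 1150 and 951. These are out of 11555 genes tested, or 10141 for sex.

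The genes whose levels were most like those of each member were taken over 18 libraries of at least 3 cells, out of 5260 genes with at least 200 counts. By Spearman correlation Nefl was most like Cnih1 (0.83), Arl2 (0.83) and Sssca1 (0.77), and Nefm most like Prnp (0.83), Ngfrap1 (0.82) and Gria1 (0.81). Nefh was most like Tpd52 (0.91), Kdm2a (0.85) and Irgq (0.83), and Ina most like Garnl3 (0.85), Rsu1 (0.84) and Golm1 (0.83). Prph was most like Ralgps2 (0.93), Rgs7 (0.88) and Ptpn11 (0.87), and Vim most like Satb1 (0.86), Aak1 (0.81) and Slc44a2 (0.81). No member was among the 3 genes most like another. The highest value between members was 0.57, for Nefl with Nefm, which ranked 56 for Nefl. These libraries share collections, and the values are descriptions. The top values out of 5260 genes over 18 libraries can be high by chance, and this was not tested. No Ach1 or Glutamatergic library held 3 cells, so the likeness does not cover these identities.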

How the data were processed

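The deposited table holds raw counts per gene and cell, per the file's whole-number values. Its build is mm10, per the submitters' processing notes. The aligner, counting program, strand setting and any collapsing of molecules are not given in the sources used here. Values ran up to 1888, 704 genes had no count and 0 columns were without a sample or held identical values.

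Counts were summed by identity and collection (44 libraries of the named identities). Genes under 20 counts, or found in fewer than 3 libraries, were dropped. After TMM scaling the rest were tested in edgeR 4.0.16 (robust quasi-likelihood, R 4.3.3), with two-sided tests and Benjamini-Hochberg adjustment. An SE is the absolute log2 fold change over the square root of F, and 95% intervals are its normal approximation. Age and sex were fitted together in Noradrenergic3 libraries of at least 3 cells. In libraries of at least 5 cells, deviations from identity means correlated at 0.187 to 0.264 in 4 pairs from the same collection and at a mean of -0.0496 in 20 other pairs. Collection was a block term from the outset, and this checked the pairing. Alternatives were RLE factors, no filter, DESeq2 1.42.0, no block, larger libraries, a glial covariate and leaving out each collection. The fit was tested on simulated data. All 6 members, the called related genes and the 3 genes most like each member are named. Members and lists were chosen with earlier results of these data known. An alternative for Vim added after the data were seen is not reported here.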

Additional observations from a re-analysis of the deposited data

Results flagged for a closer look

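Of 42 sets of collections (1 member in 1 identity, 4 to 7 collections), 5 held a collection far from the others. Chance flags about 1 in 20 sets only where all collections have equal spread. The collections held 1 to 43 cells, so the 5 cannot be set against that rate. Each flagged value rests on 1 or 2 cells. Prph in Ach1 stood at 40.2 counts per 10000 in the P30 female cell, against 10.1 to 22.98 in the other 6 collections. Vim in Ach1 stood at 11.5 in the P30 male cell (16 counts), against 1.77 to 5.87. Nefh in Ach2 stood at 0.162 in the 2 P38 male cells (1 count), against 1.01 to 1.17. Nefm in Noradrenergic1 had 0 counts in the P30 female cell, against 3.69 to 4.86 in the other collections. With 11281 counts in that cell, this allows a level of up to 2.66 per 10000 (3 counts). Vim in Noradrenergic2 stood at 2.76 in the 2 P30 female cells (28 counts), against 0.428 to 1.10.

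The 85 Unclassified cells entered no comparison and held all 6 transcripts. Over their 7 collections Nefl stood at 3.00 ± 1.42 counts per 10000 (SD), Nefm at 4.08 ± 2.75, Nefh at 0.645 ± 0.362, Ina at 1.36 ± 0.591, Prph at 12.7 ± 2.95 and Vim at 2.27 ± 0.330. Vim lay between its means in the noradrenergic (1.25 ± 0.502, n = 10) and the cholinergic cells (5.14 ± 3.02, n = 7), beside a median glial sum of 26.1.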

How the results depend on the processing

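Of the members, Nefl, Ina and Vim in cholinergic against noradrenergic cells kept their direction and their call under all 6 alternatives and without each of the 10 collections. The 7 other called values kept their direction, and each lost its call without at least 1 collection. Nefm in Noradrenergic4 also lost it with no replicate block (edgeR adjusted p = 0.101). Nefm in Noradrenergic2 also lost it with DESeq2 (DESeq2 adjusted p = 0.0601), and Nefh in Noradrenergic4 with libraries of at least 2 cells (edgeR adjusted p = 0.0987). With no replicate block the count of genes called between Ach1 and Ach2 was 5 in place of 16. With libraries of at least 2 cells the counts of genes called were 279 in place of 528 (cholinergic), 184 in place of 304 (Glutamatergic) and 242 in place of 161 (Noradrenergic1). With DESeq2 they were 4 (Ach1 against Ach2), 115 in place of 189 (Noradrenergic2), 109 in place of 201 (Noradrenergic3) and 92 in place of 163 (Noradrenergic5). By sex the count was 12 without a filter and 8 over all noradrenergic identities in place of 3, and by age 43 in place of 127. Leaving out each collection gave 348 to 567 (cholinergic), 91 to 360 (Glutamatergic), 5 to 17 (Ach1 against Ach2), 90 to 166, 114 to 205, 117 to 207, 87 to 152 and 56 to 174 (Noradrenergic1 to Noradrenergic5), 3 to 12 (sex) and 6 to 159 (age, 6 without P11 female). The cause of these changes in count was not tested, and settings that leave some libraries out also hold fewer of them. Uncalled log2 values changed sign for Prph in cholinergic cells (-0.026 with libraries of at least 2 cells, -0.030 to 0.15 without each collection). By sex, Nefl was -0.023 with age left out and -0.056 to 0.17 without each collection, Prph -0.031 to 0.11, and Vim 0.11 over all noradrenergic identities and -0.26 to 0.040. By age, Nefm ran from -0.27 to 0.44, Nefh from -1.004 to 0.28 and -0.077 over all noradrenergic identities, Ina from -0.32 to 0.28, and Prph from -0.27 to 0.0069, 0.0024 without a filter and 0.0016 with sex left out. Without the glial gene found in every named cell, chosen after the data were seen, Vim kept a positive correlation with the glial sum in the 5 noradrenergic identities, Ach1, Ach2 and the Glutamatergic and Unclassified cells. The glial covariate was fitted with the whole list only. Means over cells moved 0 of 72 levels by more than 1 SD, and thinning moved 19 of 72 shares. Small libraries limit these results: the cholinergic comparison rests on 16 cells and the Glutamatergic one on 4, and P11 female alone carries the young end of the age comparison.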
